A study of Homo sapiens with 13 samples.

Results

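The 8377 m6A summits called in control MDA-MB-231 cells are described here, with the genes that carry them. They are every entry of the deposited control list, in which an m6A pull-down was compared with its input, and they make up 8377 of the 14300 summits in the control and knockdown lists together. A summit is the single base at which the enrichment of a called region is highest, and its score is a -log10 probability from the peak caller, so that a higher score means stronger statistical support and not a larger share of methylated molecules. MDA-MB-231 is an established human cell line from a breast cancer that lacks hormone receptors and HER2 amplification. The study compared such cells with and without VIRMA (KIAA1429) by RNA-seq and by MeRIP-seq, a method that uses an antibody against m6A to enrich pieces of mRNA carrying the mark. The control cells were a stable line made with a lentivirus carrying a non-targeting control (NTC), at passage 2, with no VIRMA depletion. The labels do not say whether the line was a clone or a pool.

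For MeRIP-seq the control cells gave 1 pull-down library and 1 input library, from 300 µg of total RNA whose mRNA had been cut into pieces of 100 to 200 nt. The summits therefore carry no replicate error, the depth behind them is unknown, and no test of a difference was possible. Exact 95% Clopper-Pearson intervals, where given, cover counting error alone. Gene levels came from 3 NTC RNA-seq libraries, NTC-1, NTC-2 and NTC-3, with 14566560, 16351606 and 14099143 gene reads. They are read counts scaled by a factor for each library, without any correction for transcript length. Nothing in the labels shows that the 3 libraries came from separate cultures, so their spread may be technical.

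The label of the cells was checked against marker genes. All 9 markers of MDA-MB-231 listed for this purpose were expressed, at mean normalised read counts from 2915 to 25822, and VIM, vimentin, was the highest. Of the luminal breast markers, ESR1 (2.15), PGR (1.96), FOXA1 (0.80) and CDH1 (8.91) were below 10, GATA3 (21.6), TFF1 (84.3) and ERBB3 (111) were low, and KRT19 was at 8800. Among leukocyte genes, the T cell gene CD3E was at 0 in all 3 libraries and ITGAM at 1.47, while CD14 was at 124, LYZ at 50.3 and PTPRC at 12.2. Among fibroblast and endothelial genes, CDH5 was at 0 in all 3 libraries and COL3A1, DCN, PDGFRA and VWF were below 10, while COL1A1 was at 46.3, PDGFRB at 76.3 and PECAM1 at 826 ± 40.3 (SD, n = 3). The part of such levels in the results was not tested.

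N6-methyladenosine is placed on nascent mRNA by a nuclear writer complex. METTL3 carries the catalytic site, METTL14 helps to bind RNA, and WTAP, VIRMA, ZC3H13, CBLL1, RBM15 and RBM15B form or recruit the rest of the complex. Proteins of the YTH family bind the mark and steer the transcript towards decay, export or splicing, and FTO and ALKBH5 can remove it. In mammalian mRNA the mark is known to sit mostly in long internal exons, around stop codons and in 3′ untranslated regions, within a short motif whose commonest form holds GGAC.

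Sequence could be read at the few summits that fall in the windows around gene starts or in microRNA hairpins for which RefSeq sequence (GRCh38.p14) was at hand. Of 8078 summits on the main chromosomes, 104 fell in a window of 300 bases around an annotated gene start. Windows can overlap, and these summits made 116 pairs of a summit and a window. In 13 of the pairs the summit lay in the first 50 transcribed bases of a coding gene. The runs of 30 bases below, on the strand of the gene, hold such summits and are shown because they let the motif be looked for at the base of the summit. GGAC is in capitals, and the summit is base 16 except in MORC2 (base 27) and SLC5A6 (base 20).
MORC2: gcccggtcaggtggtgcgctcgccactgcc
G6PC3: cctGGACtctggtttccgccctggagcaag
SLC5A6: gcttgggggcttttcctgctcgtggagctc
CDK13: acttggaGGACtcgGGACtcccccgcaggt
CUL1: gcaggGGACtgGGACcccctcttcttcggg
ZNF470: gcagcggaGGACacgcccacttccggaaag

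The run of MORC2, a chromatin ATPase, spans chr22:30968725-30968754 on the minus strand and its summit scored 20.1. That of G6PC3, a glucose 6-phosphatase subunit, spans chr17:44070908-44070937 on the plus strand and scored 18.3. The runs of SLC5A6, a vitamin transporter (chr2:27212219-27212248, minus strand), CDK13, a kinase of RNA polymerase II (chr7:39950319-39950348, plus strand), CUL1, a scaffold of ubiquitin ligases (chr7:148698313-148698342, plus strand), and ZNF470, a zinc finger gene (chr19:56567450-56567479, plus strand), scored 14.5, 11.5, 10.9 and 9.85. In CDK13, CUL1 and ZNF470 the summit lay 26, 35 and 3 bases before the annotated start, and in G6PC3, SLC5A6 and MORC2 it lay 12, 39 and 46 bases after it. GGAC was searched on the gene strand, and on either strand as GGAC or GTCC. Only summits with 50 bases of the window on either side were used, and all 63 of these lay before the annotated start of that window's gene. Within those bases GGAC was present on the gene strand for 30 of 63 summits (47.6%) and on either strand for 46 (73.0%). In a stretch of the same length in the middle of all 35116 start windows the shares were 30.8% and 52.7%. That stretch has a fixed place, so its distance from the start was not matched to that of the summits. A match describes the letters and is not a methylated site.

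Of 1562 annotated microRNA hairpins, 3 held a summit, all within a coding gene on the same strand. Hairpin bases 52 to 81 of MIR922 and 23 to 52 of MIR1182 are shown, with GGAC in capitals, because they contain the stronger summits.
MIR922: gagaagcagcagagaauaGGACuacgucau
MIR1182: cucccucuccagcagcgacuggauucugga

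MIR922 lies in RUBCN, a regulator of autophagy (shown: chr3:197674496-197674525, minus strand), and its summit at hairpin base 71 scored 12.5 and fell within the GGAC shown. MIR1182 lies in FAM89A (shown: chr1:231019873-231019902, minus strand), where a summit at hairpin base 38 scored 15.7. The hairpin MIR671 in CHPF2, a chondroitin polymerising factor, holds no GGAC and its summit scored 3.36. GGAC occurs in 27.3% of all hairpins in the table.

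Scores spread over a wide range. The lowest was 1.31, which stands for a probability of 0.0492, the quartiles were 4.93, 7.71 and 11.5, and the highest was 40.02. Of the 8377 summits, 6218 (74.2%) scored at least 5, 2769 (33.1%, interval 32.0 to 34.1) at least 10, 306 (3.65%) at least 20 and 17 at least 30. There were 2963 different scores, and the commonest, 2.98, was shared by 57 summits.

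The strongest summit lay in SPSB1, which encodes a substrate adaptor of a ubiquitin ligase, at chr1:9367474, with a score of 40.02. SPSB1 was at 1347, 1368 and 1306 normalised reads in NTC-1 to NTC-3, and its other summit scored 8.01. It was followed by B4GALNT4, a glycosyltransferase (36.3), CGRRF1, a ring finger protein (36.3), CELSR1, an atypical cadherin of planar cell polarity (36.2), and MMP17, a membrane-bound metalloprotease (35.6). RAB40C, a small GTPase of ubiquitin ligases (34.0), ATXN1, ataxin 1 (33.2), PAG1, a membrane adaptor of SRC family kinase signalling (32.4), and the zinc finger genes ZNF629 (33.7) and ZNF837 (32.0) completed the first 10 genes.
A top score did not require a high read count. MMP17 was at 46.7 ± 5.18 (SD, n = 3) and ZNF837 at 87.9 ± 8.45, whereas SPSB1 was at 1340 ± 31.8 and ATXN1 at 1313 ± 191. In the 6 of these genes with a known strand, the top summit lay 325 nt from the gene end in RAB40C, 1094 nt in CGRRF1, 1352 nt in ZNF837, 5019 nt in B4GALNT4, 5526 nt in ZNF629 and 7494 nt in ATXN1, introns included.

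**Figure D1:**
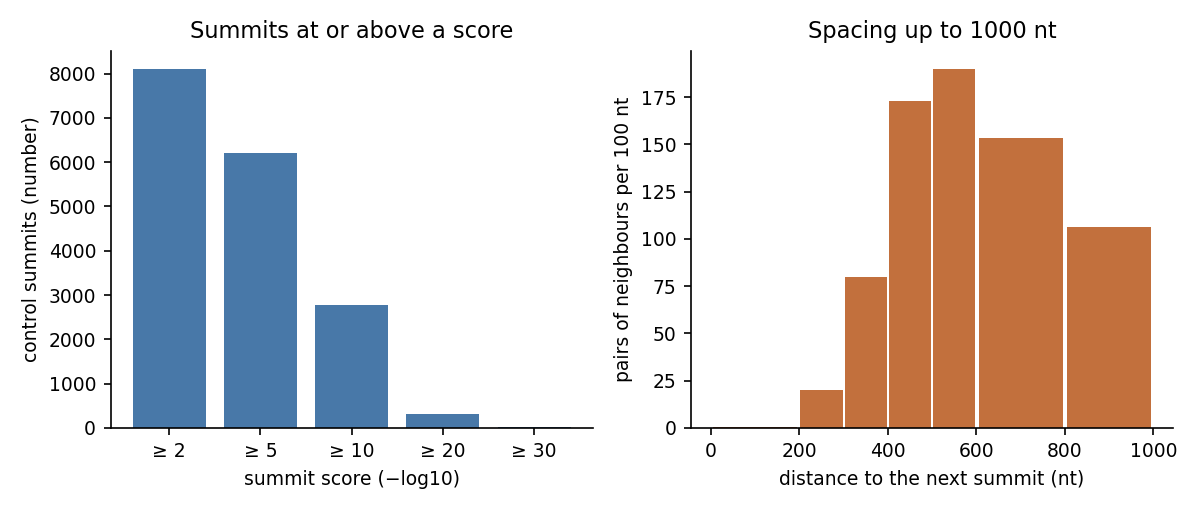
Left, number of control summits at or above a -log10 score; right, pairs of neighbouring summits per 100 nt of distance, for distances up to 1000 nt. The bars on the left fall from 6218 summits at a score of 5 to 306 at 20, and on the right the single pair under 200 nt is followed by a rise to 190 pairs in the step that begins at 500 nt.

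Neighbouring summits, with the exception of 1 pair, lay farther apart than the length of a fragment, and many lay within 1000 nt of each other. Summits stand for called regions, and the settings of the peak caller are not given. The part of region calling in this spacing was not tested. Among 8054 distances between neighbours the shortest was 118 nt, the first percentile 386 nt, the lower quartile 6376 nt and the median 57206 nt. A neighbour within 200 nt, the upper fragment length, was found for 2 summits (0.0248%), within 500 nt for 537 (6.65%) and within 1000 nt for 1812 (22.4%, interval 21.5 to 23.4). The closest pair lay on chromosome 9, at 40637941 and 40638059, in no single coding gene. Other close pairs were in TATDN2 (229 nt), CENPB, which encodes a centromere protein (242 nt), and MAML2, a Notch coactivator (244 nt).

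Chained at 1000 nt, the summits formed 828 runs, of which 702 held 2 summits, 102 held 3, 18 held 4 and 6 held 5. In 712 of the 828 runs all summits lay in the same single coding gene. The runs of 5 lay in ZKSCAN1, a zinc finger gene (2409 nt from first to last, scores from 4.73 to 17.7), TSC22D1, a transcriptional regulator (2923 nt, up to 15.7), AHNAK2, a very large scaffold protein (1952 nt, up to 11.96), FLRT2, a membrane protein with leucine-rich repeats (2038 nt, up to 11.5), FLG, filaggrin (3847 nt, up to 11.0), and MFHAS1 (2261 nt, up to 8.12). Summits in runs scored like lone ones, with medians of 7.81 (1812 summits) and 7.76 (6266 summits).

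Most summits fell inside a protein-coding gene. Of the 8078 on the main chromosomes, 7108 (88.0%, interval 87.3 to 88.7) lay in exactly 1 coding gene span, 454 (5.62%) in overlapping coding spans, 376 (4.65%) in spans of other gene types alone and 140 (1.73%) in no gene span of the annotation used. Median scores fell in the same order of placement, with 7.89 in a single coding span, 7.68 in overlapping coding spans, 6.92 in other gene types alone and 5.52 outside genes. Gene spans include introns and carry no exon boundaries here, so exonic and intronic summits, coding sequence and untranslated regions were not separated.

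Within genes, the summits crowded towards the annotated 3′ end. Strand was known for 3821 genes with 5918 summits, none of them on chromosome 8. Of these summits 819 (13.8%, interval 13.0 to 14.7) lay within 1000 nt of the gene end and 436 (7.37%, interval 6.71 to 8.06) within 1000 nt of the start. Together the last 1000 nt made up 1.29% of the summed length of these genes, introns included. The corresponding share of their exonic sequence is not known here, and its part in the crowding was not tested. Within 5000 nt the shares of summits were 51.3% and 19.6%, and the median distance was 4794 nt to the end and 26029 nt from the start.

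Divided into 10 equal parts of the span, the last part held 38.9% of the summits, the one before it 14.2%, the first 8.55% and the part after the first 4.02%. The last 250 nt were sparse, with 64 summits, and the next 250 nt held the most of the steps plotted, 272. Summits near the end did not stand out by score: the median was 7.96 within 1000 nt of the end, 7.96 in the rest of the span and 7.16 within 1000 nt of the start. In 637 of the 3821 genes (16.7%) the strongest summit of the gene lay within 1000 nt of its end, and in 271 (7.09%) within 1000 nt of its start.

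**Figure D2:**
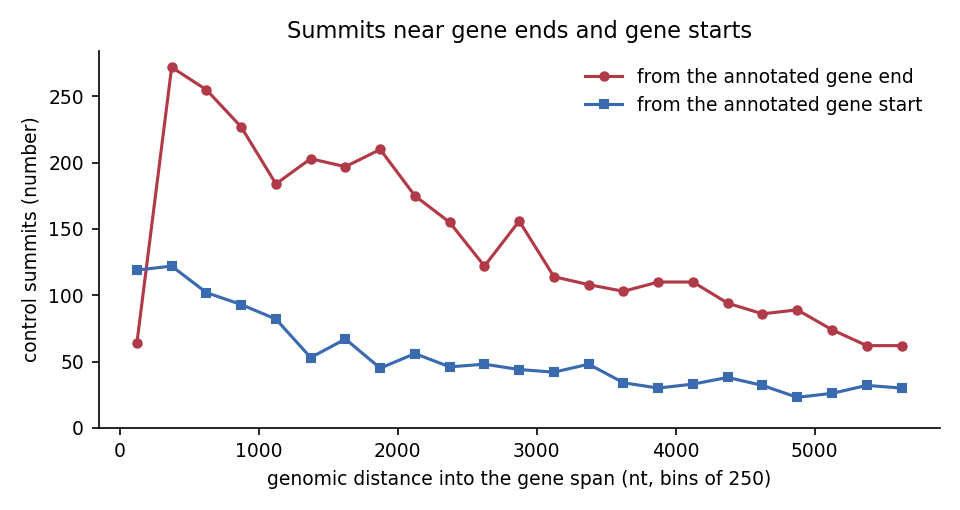
Number of control summits (vertical axis) in steps of 250 nt of genomic distance into the gene (horizontal axis), counted from the annotated end (circles) and from the start (squares) of 3821 genes with a strand. Counts from the end rise from 64 to 272 between the first and second step and then decline, and from the second step on they stay above the counts from the start.

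At least 1 summit was found in 4582 coding genes. A single summit was found in 2990 of them (65.3%), 2 summits in 1055, 3 in 329 and 4 in 110, while 98 genes had at least 5 and 19 at least 7. The 1592 genes with 2 or more summits held 4118 of the 7108 summits (57.9%). Genes with more summits also had a stronger top summit: its median score was 7.67 in genes with 1, 11.0 with 2, 12.9 with 3 and 14.7 with 4 or more (205 measured genes). The highest of several values tends to exceed a single value, and the median over genes of their median score was 7.67, 8.52, 8.49 and 7.87 in the same groups.

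AHNAK2 carried the most summits, 15, spread over 16021 nt with gaps from 364 to 2512 nt and scores from 4.07 to 11.96. It was at 5531, 4699 and 6646 normalised reads in NTC-1 to NTC-3. MKI67, the proliferation marker that coats mitotic chromosomes, had 13 summits over 17584 nt, the strongest (13.8) 2268 nt from the gene end. Its read count was 3939, 3696 and 8691, so NTC-3 stood apart from the other libraries. KMT2D, a histone H3 lysine 4 methyltransferase, had 10 summits with scores from 7.94 to 15.8 and read counts of 508, 552 and 1001.
FAT1 and FAT4, giant atypical cadherins, also had 10 each, with top scores of 21.1 and 21.04, followed by the zinc finger homeobox gene ZFHX3 (9), the zinc finger gene HIVEP3 (8), the microtubule-associated NAV1 (8), and, among 11 genes tied at 7, the cytoskeletal linkers DST and MACF1, which had the strongest top summits of those tied. NTC-3 was the highest library in all 8 genes with at least 8 summits and in 15 of the 19 with at least 7, beside 37.5% of all measured coding genes.

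**Figure D3:**
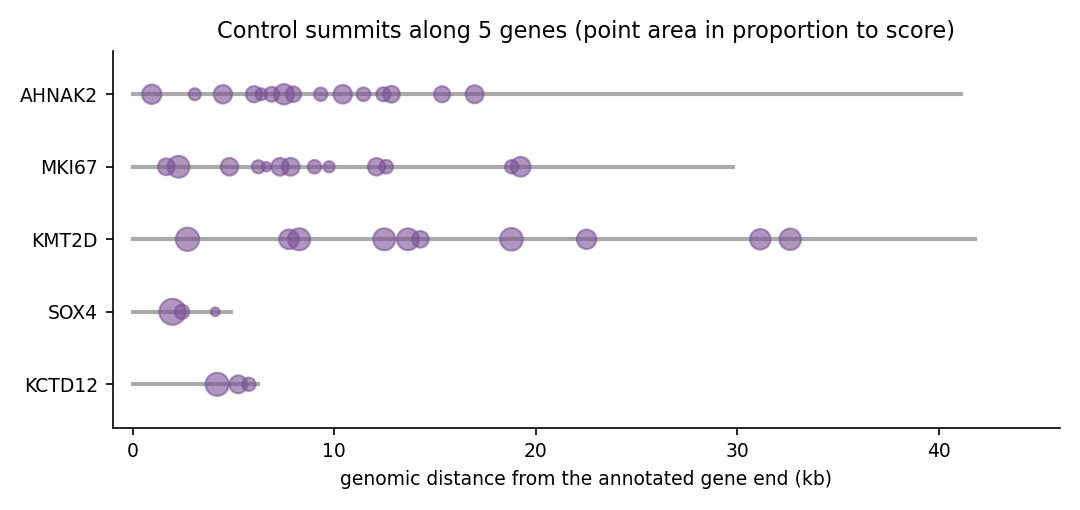
Control summits (points, area in proportion to the score) along 5 genes, placed by genomic distance in kb from the annotated gene end; grey lines mark the length of each gene. The 15 summits of AHNAK2 and the 13 of MKI67 are spread over 16021 and 17584 nt, whereas the 3 summits of SOX4 and of KCTD12 lie within short genes.

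A higher level in NTC-3 was more frequent in genes with many summits, but it was not confined to them. The median log2 ratio of NTC-3 to the mean of NTC-1 and NTC-2 was -0.02 in 7840 measured genes without a summit, 0.01 with 1 summit, 0.04 with 2, 0.09 with 3 and 0.20 with 4 or more. NTC-3 was the highest library in 37.5% of all 12245 measured genes. The share was 2648 of 7840 (33.8%) without a summit and 140 of 205 (68.3%) with 4 or more. Genes without a summit in which NTC-3 was the highest included ENO1 and the histone gene H1-2 (15702, 14257 and 19312 in NTC-1 to NTC-3). The median gene span rose along the same groups, from 30653 nt without a summit to 87699 nt with 4 or more, and its part in this result was not tested.

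Of 12245 coding genes with a mean NTC read count of at least 10, 4405 had a summit, which is 36% and the background for the groups of coding genes below. Of 9919 genes with a mean of at least 100 the share was 39.8%, and a summit with a score of at least 20 was found in 267 genes (2.18%). A further 177 coding genes with a summit were not among those measured, 97 because their mean was below 10 and 80 because they could not be matched to the table of read counts.

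The share of genes with a summit rose and then fell with read count. By deciles of mean read count it was 12.2% in the lowest (10.0 to 35.4 reads), 28.3% and 42.0% in the next deciles, 44.6% at its peak in the fourth (224 to 362 reads), 39.1% in the ninth and 24.9% in the highest (above 2867 reads). Counting intervals were 41.8 to 47.4 in the fourth decile and 22.5 to 27.4 in the highest. They treat genes as independent, although all genes share the same libraries. Among genes with a summit, the median top score had a similar course, from 6.71 in the lowest decile to 10.0 in the sixth and 8.10 in the highest.

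**Figure D4:**
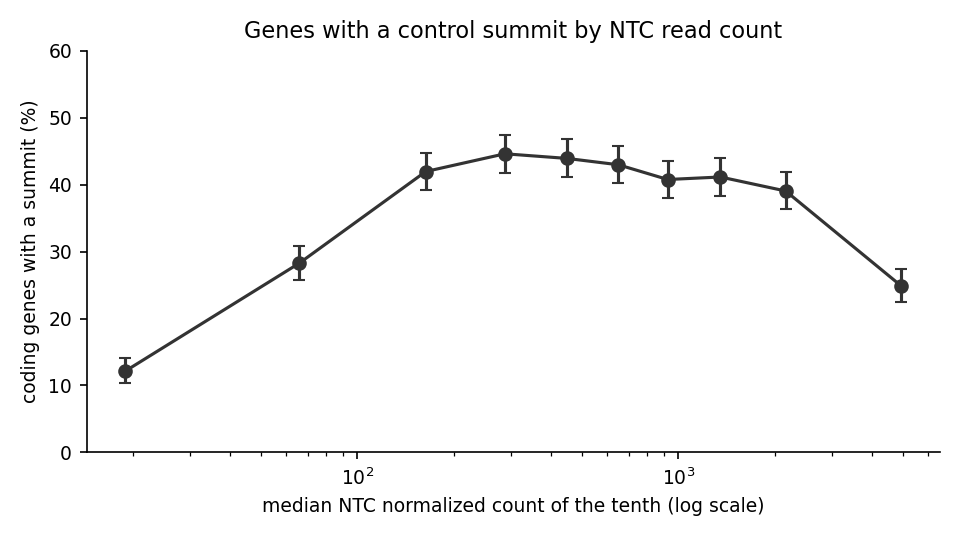
Share of measured coding genes with at least 1 control summit (vertical axis, percent) against the median NTC normalised read count of each decile of genes (horizontal axis, log scale); bars are exact 95% intervals for counting error. The share climbs from 12.2% to 44.6% and drops to 24.9% in the most abundant decile.

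Among genes with a mean of at least 10 reads, those with and without a summit had close medians; with no such filter the log2 difference of the medians was 3.24 over 17277 genes. The median read count was 581, 579 and 602 in NTC-1 to NTC-3 with a summit and 519, 515 and 505 without, a log2 difference of 0.20 (0.16, 0.17 and 0.25 by library), or 1.14-fold. The quartiles of the mean level were 245 and 1288 with a summit and 109 and 1389 without, so that genes without a summit reached further both down and up. Across genes the rank correlation of the number of summits with the level was weak (Spearman rho = 0.056 over 4405 genes with a summit). That of the top score with the level was weak too (rho = 0.049). A rank correlation can miss a course that rises and then falls, as the top score did over the deciles. The rank correlation of summit number with gene span was 0.143 in the same genes. These correlations run across genes, which are not independent replicates, and each gene shares the same libraries.

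Some of the most abundant coding genes had no summit. ENO1, enolase, had 119732, 109966 and 131449 reads in NTC-1 to NTC-3 and no summit. The glycolytic enzymes PKM (76422 ± 7034, SD, n = 3) and GAPDH (69382 ± 4188), the calcium-binding S100A6 (74359 ± 4260) and the elongation factor EEF1A1 (73690 ± 4845) had none either. Nor had the chaperone HSPA8, the enzymes PGK1 and LDHA, the actin ACTG1 and the actin crosslinker FLNA, the last at 46415 ± 2580. The most abundant genes with a summit were AHNAK, a giant scaffold protein (61764 ± 16530, 4 summits, top score 7.16), DYNC1H1, the dynein heavy chain (31582 ± 6860, score 1.71), the protease CAPN2 (6.39), the cytoskeletal linker PLEC (10.1) and the receptor NRP1 (3.33).

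At the other end, strong summits were found in genes with few reads. SLC9A3, a sodium/proton exchanger, had 10.5, 4.05 and 6.17 normalised reads and 6 summits, the strongest 20.7 and 1061 nt from the gene end. ATRIP, a partner of the ATR kinase, had 9.41 ± 0.97 reads and a summit of 22.5, and ATP2C2, a calcium pump, had 11.6 ± 1.64 reads and a summit of 20.8. C1orf50 (15.2 ± 2.88 reads, score 24.0) and RABGEF1, an exchange factor of RAB5 (20.96 ± 7.29 reads, score 20.1), followed. A summit inside the span of a gene may belong to an overlapping or neighbouring transcript, and the strand of the summits is not given.

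VIRMA itself, the scaffold of the writer complex, had 1 summit with a score of 6.11 at chr8:94511527. HAS2, the hyaluronan synthase named in the title of the study, had 1 summit with a score of 8.94 at chr8:121628932, above the median of 7.71 and below the upper quartile of all summits. HAS2 was at 2436, 1633 and 2389 normalised reads in the 3 NTC libraries, with NTC-2 the lowest. Of 10 measured hyaluronan genes 5 had a summit, beside a background of 36%: HAS2, the synthase HAS3 (11.3, at 35.3 ± 1.72 reads), the hyaluronidase HYAL2 (10.7), the cell surface hyaluronidase CEMIP2 (7.96) and HYAL3 (3.03). The receptor CD44 had none at 5175 ± 1174 reads.

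Among the 8 subunits of the m6A writer complex 5 had a summit, 12 summits in all. RBM15 and ZC3H13 reached a score of 18.6 each, RBM15B 10.1 and CBLL1 7.61. METTL3 (599 ± 98.5 reads), METTL14 (1211 ± 106) and WTAP (1353 ± 119) had none within a single gene span, and WTAP shared 2 summits with an overlapping coding gene. Of 12 measured readers and erasers 5 had a summit, led by IGF2BP3, which stabilises bound mRNA (20.5), and the YTH proteins YTHDF1 (15.2), YTHDF3 (11.9) and YTHDF2 (8.33); YTHDC1 (12.2) could not be matched to a read count.

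Several groups of regulators had shares of genes with a summit above the background of 36%. Of 23 measured genes listed as intronless, 22 had a summit, 35 summits in all. FZD7, a Wnt receptor, had 4 with a top score of 22.5 at 540, 481 and 608 normalised reads. SOX4, a transcription factor of progenitor cells, had 3, with the strongest of 19.7 at 1968 nt from its end. PURA, a nucleic acid binding protein (19.2), and FZD8, another Wnt receptor (17.1), came next, and the remaining gene, H2AX, shared 1 summit with an overlapping coding gene. For 16 of these genes with a strand, the 25 summits lay between 7.53% and 78.9% of the span from the start, at a median of 28.9%, and 8 of the 25 lay past the middle.

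Of 28 large chromatin regulators 26 had a summit, 89 in all, and 19 had one of at least 10. ARID1A, a subunit of the BAF remodelling complex (23.8), SRCAP, which exchanges histone H2A.Z (23.1), CHD8, a chromodomain helicase (20.5), and EP300, a histone acetyltransferase (18.8), had the highest scores. SRCAP stood at 49.0, 40.5 and 76.5 normalised reads, and EP300 at 371, 389 and 827, so NTC-3 was again the highest library. CHD4 (5240 ± 545 reads) and TET1 had no summit.

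Genes listed as immediate early transcription factors, which are switched on within minutes of a growth signal, carried a summit in 15 of 19 measured genes. Of these, JUN, JUNB, JUND, IER2 and IER5 are also among the intronless genes with a summit, so the 2 lists overlap. KLF4 (17.7), FOSB (14.1), JUNB (12.7) and KLF6 (12.1) led the list, and MYC had 3 summits up to 10.1 at 1508, 1622 and 1474 reads. SOCS, DUSP, SPRY and SPRED genes, inhibitors that feed back on cytokine and ERK signalling, had one in 14 of 20. SOCS6 (18.1), SOCS5 (17.9), SPRED3 (15.6) and SPRED2 (14.4) scored highest. DUSP4 and DUSP6, at 21468 ± 2847 and 18063 ± 2340 reads, had none within a single gene span, and DUSP6 shared 1 summit with an overlapping coding gene. Giant cadherins had one in 5 of 7, with 35 summits: CELSR1 (36.2), FAT1 (21.1), FAT4 (21.04) and CELSR3 (12.5).

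**Figure D5:**
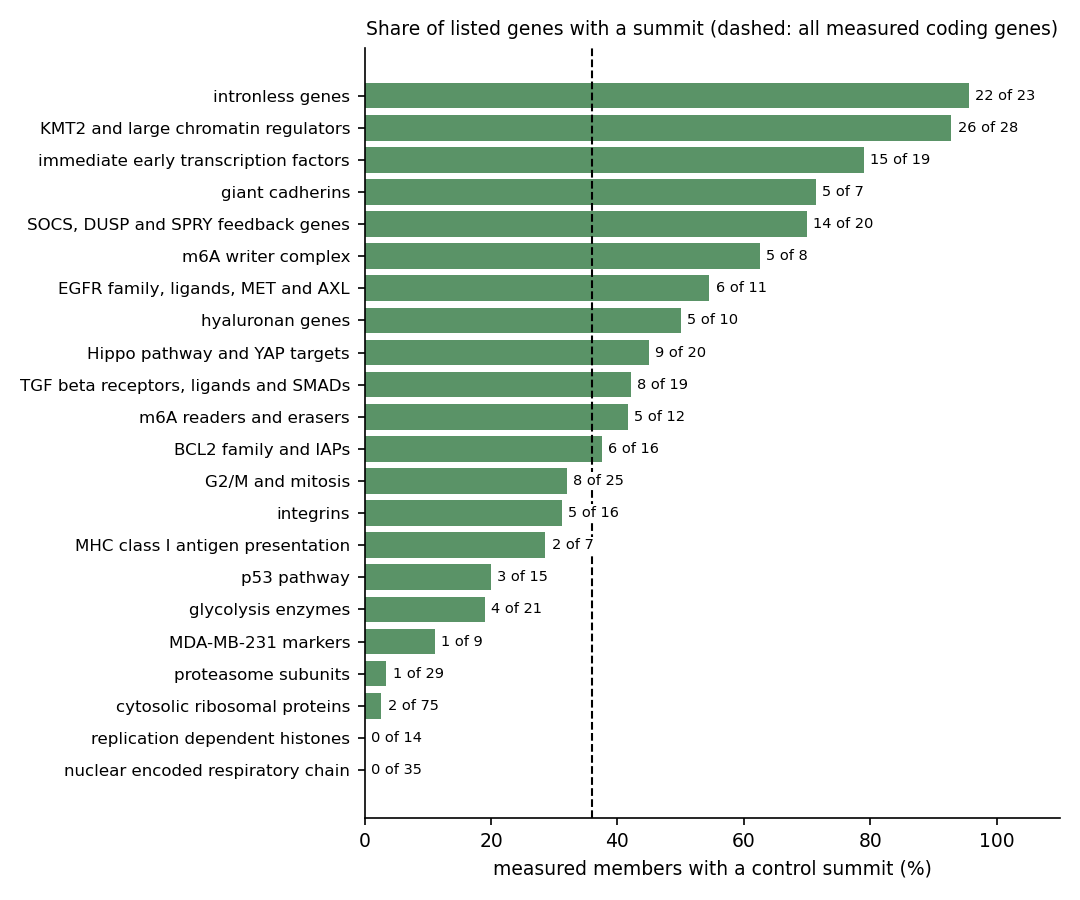
Share of measured members with at least 1 control summit (horizontal axis, percent) for each list of coding genes with at least 5 measured members, with the number of members beside each bar; the dashed line is the share in all 12245 measured coding genes, 36%. Intronless genes (22 of 23) and large chromatin regulators (26 of 28) lie at the top, and respiratory chain genes (0 of 35), histones (0 of 14) and ribosomal proteins (2 of 75) at the bottom.

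Signalling lists were mixed. In the TGF beta list 8 of 19 genes had a summit, led by SMAD6 (27.2), SMAD3 (21.9), SMAD7 (15.7) and the receptor ACVR1 (11.9); SMAD6 and SMAD7 are inhibitors of the pathway and SMAD3 is one of its effectors. In the Hippo list 9 of 20 did, led by the kinase LATS2, with 6 summits up to 25.5, and the angiomotins AMOTL1 (20.7) and AMOTL2 (19.1), followed by LATS1 (8.78). In the EGFR list 6 of 11 did, with the receptors EGFR (12.7), MET (11.2) and ERBB2 (10.7) and the ligand NRG1 (7.77). These shares (42.1%, 45.0% and 54.5%) rest on few genes.
The apoptosis list had 6 of 16, with BBC3 (14.9), BIRC3 (9.45), XIAP (6.52) and MCL1 (4.17), and the p53 list 3 of 15, BBC3, PPM1D (12.8) and MDM4 (12.02), the latter both inhibitors of p53. Integrins had 5 of 16, led by ITGA5 (16.8) and ITGB3 (13.6), then ITGB2 (9.25) and ITGA6 (4.52). Among 25 genes of G2/M and mitosis 8 had a summit, with MKI67 (13.8), CENPF, a kinetochore protein (10.6), the phosphatase CDC25C (9.76) and the motor KIF20A (5.73) at the top.

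Several groups of housekeeping genes had few or no summits. Of 75 cytosolic ribosomal protein genes 2 had one, RPS29 (7.39) and RPS24 (4.17), and the median read count of the list was 9619, within the highest decile of all genes, where 24.9% of genes had a summit. Of 35 nuclear genes of the respiratory chain 0 had one, at a median of 2106 reads; ATP5F1B, the catalytic subunit of ATP synthase, was at 13337 ± 641. Of 29 measured proteasome genes 1 did, PSMB7, with 5 summits up to 11.1. PSMC4 also had 1 summit (8.27) but could not be matched to a read count. Glycolysis genes had one in 4 of 21, the regulators PFKFB4 (11.8) and PFKFB3 (5.45), the glucose transporter SLC2A3 (9.35) and the hexokinase HK2 (5.22). Of 14 replication-dependent histone genes, whose mRNA lacks a poly(A) tail and which belong to near-identical families, 0 had one. Reads of ribosomal protein and histone genes may be split among copies, and the sources used here do not give the counting rule.

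The share with a summit also varied among 10 gene families, which were chosen after their values were seen. Of 426 measured genes named ZNF, 245 (57.5%, interval 52.7 to 62.3) had a summit, against 35.2% of the 11819 other measured genes. Many lie on chromosome 19, where 115 of 210 ZNF genes (54.8%) and 248 of 654 other genes (37.9%) had one; on the other chromosomes the ZNF share was 60.2%. The highest share of the 10 was that of histone methyltransferases and other SET genes, 17 of 20 (85.0%), some of which are also in the list of chromatin regulators, followed by ZBTB zinc finger genes with 29 of 36 (80.6%). FBX genes had a summit in 26 of 51 (50.98%), kinesins in 12 of 25 (48%), SLC transporters in 90 of 233 (38.6%) and protocadherins in 13 of 35 (37.1%). The lowest shares were those of transmembrane TMEM genes, 46 of 155 (29.7%), RAB genes, 15 of 58 (25.9%), and genes of the mitochondrial ribosome, 12 of 73 (16.4%). The median read count was 275 in ZNF genes and 829 in those of the mitochondrial ribosome.

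Chromosomes differed in the share of their measured genes that carried a summit, with chromosome Y left out. The share was highest on chromosome 22 (45.0%, interval 39.0 to 51.2), 16 (44.3%), 21 (44.0%), 20 (43.8%) and 19 (42.0%), and lowest on chromosome 18 (27.4%, interval 20.8 to 34.8), 2 (29.96%), 4 (31.3%) and 6 (31.5%). Chromosome 1 held the most summits, 791 (9.79%), followed by chromosome 19 with 597 and 17 with 539. Summits on the X chromosome had the lowest median score, 6.95, against 8.20 on chromosome 17.

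Among lncRNA genes with a mean of at least 10 reads, 131 of 908 (14.4%) had a summit outside coding spans. BAIAP2-DT reached 24.6, GASAL1 21.6, LINC00339 20.3 and SOX21-AS1 19.6, and LINC00205 had 5 summits; these were chosen by score and number after their values were seen. In a list of 18 abundant nuclear and snoRNA host RNAs, to be read beside that 14.4%, 4 had a summit: TUG1, with 4 summits up to 9.91, JPX (8.55), FTX (8.20) and NORAD (3.50). TUG1 is classed as coding in the annotation used, so it is not among the 908 genes and was counted by the rule for coding genes. MALAT1, at 31115, 32365 and 37689 normalised reads, and NEAT1, at 5124 ± 1568, had none.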

How the data were processed

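MeRIP-seq of control (NTC) MDA-MB-231 cells gave 1 pull-down and 1 input library, and RNA-seq gave 3 NTC libraries. Per the submitters' processing notes, the build was hg38 and the tools were STAR, HTSeq, MACS2, DESeq2, cutadapt and FastQC 0.11.8, with no roles or settings given. The authors deposited 1 position per summit with a -log10 score, in a form as MACS2 writes it; whether that is of a p or a q value is stated nowhere in the sources used here. For RNA-seq the authors deposited normalized counts, a signal in which the reads of each gene were scaled by a factor for the library: 100% of the values were whole multiples of the library's step within 0.1 read. The recovery of reads is less certain for NTC-2, whose step nearly equals 1. The 6 columns of other samples were not used.

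Each summit on a main chromosome was assigned to the RefSeq gene spans (GRCh38.p14) it fell in, which carry no exons; strand came from the RefSeq start windows. A summit counted for a gene when it lay in that coding span and no other. Of the 38616 genes with RNA-seq values, 28776 were matched to RefSeq genes, 251 of them by synonym. Measured genes had a mean NTC value of at least 10. Only descriptions and exact 95% intervals were computed, with no p-value and no test, in Python 3.11.15 with pandas 2.3.3 and scipy 1.17.1. Placement, spacing and counting were tested on simulated data, in genes that overlap no other coding span. Overlapping spans and distances by strand were not part of that test. Distances are genomic, introns included.

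The members and gene lists were chosen with earlier results of these data known. Genes were named by this rule: VIRMA and HAS2; the 10 genes with the highest summit and the 10 with the most, ties ordered by top score; the longest runs; the 10 most abundant genes without and the 5 with a summit; the 5 lowest genes with a summit of at least 20; and up to 4 members of each list by score. Others, such as members without a summit, members of short lists beyond the first 4, genes at start windows and lncRNAs, were named after their values were seen. Some items are not reported here.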

Additional observations from a re-analysis of the deposited data

Results flagged for a closer look

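Signal outside the comparisons was found in 2 places. Of the 8377 summits, 299 lay on 100 contigs other than the main chromosomes and entered no gene count. Their median score was 6.23 against 7.77 on the main chromosomes, 66 scored at least 10, and the highest was 30.5. Among them 69 lay on 7 alternate contigs of the major histocompatibility complex, from 1 to 14 per contig, with a median score of 4.26 and a highest of 16.9. Among class I genes of that region, HLA-B was at 108 ± 12.6 normalised reads (SD, n = 3) and HLA-C at 0.41 ± 0.71, beside 3966 ± 155 for their partner B2M. Whether reads of these genes lie on the alternate contigs was not tested. Of 7 measured genes of class I antigen presentation 2 had a summit, ERAP1 (12.5) and NLRC5 (7.42). TAP2 (6.42) had one too but could not be matched to a read count.

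A further 140 summits lay in no gene span of the annotation used. Their median distance to the nearest gene was 1445 nt, 62 lay within 1000 nt of one and 104 within 5000 nt. Of 60 with a nearest gene of known strand within 5000 nt, 41 lay before its start and 19 beyond its end. The strongest scored 25.5 (chr9:64762358), followed by 24.4 at 384 nt before the start of NCAPD2, a condensin subunit, 20.5 near LINC00997 and 17.1 at 841 nt before the start of SMAD7. Among the 140 were summits listed on chromosome Y, at positions 1352286 to 2488758, which lay 263538 to 887204 nt from the nearest gene of the annotation used. Whether that annotation lacks genes there, and whether the reads came from chromosome Y, was not tested.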

How the results depend on the processing

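No paired analysis was possible because no group was compared with another and the summits come from 1 pull-down and 1 input library. With a score of at least 10 the list held 2769 summits and with at least 20 it held 306. The share with a neighbour within 200 nt (0.0248%) was 0 at 100 nt, at a score of 10 and at a score of 20, and 22.4% at 1000 nt. The share in 1 coding span (88.0%) was 84.6% with every gene type, 84.8% with spans extended by 1000 nt, and 89.5% and 92.4% at scores of 10 and 20. The share of measured genes with a summit (36%) was 26.1% with no filter on low values, 39.8% at a mean of 100, 15.9% and 2.18% at scores of 10 and 20, and 39.3% when summits in several spans counted for each gene, an alternative chosen after seeing the data; leaving out 1 NTC library gave 35.9% to 36.0%. The log2 difference in level between genes with and without a summit (0.20) was 3.24 with no filter, where genes with no reads enter, 0.26 at a score of 10, and 0.18 to 0.22 without 1 library. The correlation of summit number with level was 0.0435 to 0.0615 without 1 library. Summits near a gene end (13.8% within 1000 nt) were 5.68% within 500 nt and 27.3% within 2000 nt. All lists together (33.6%) fell to 17.4% at a score of 10, beside 15.9% of all measured genes. At that score 15 of 26 lists stayed within the counting interval of their own share. A higher cutoff can only lower a share, and lists already at 0 could not move, so that count does not measure stability. The unknown depth of 1 pull-down limits what an absent summit means: a summit may be missed in a gene with few reads.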

Other observations

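No summit lay on the mitochondrial chromosome, although 13 mitochondrial mRNAs were in the table. MT-CO1, a subunit of cytochrome c oxidase, was at 13831, 13605 and 20540 normalised reads in NTC-1 to NTC-3, and MT-CO3 at 12571 ± 3386 (SD, n = 3).

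The share of genes with a summit also rose with the length of the gene span, from 30.7% in the shortest decile (up to 5756 nt) to 43.1% in the longest (from 167050 nt), and the number of summits in genes that had one rose from 1.32 to 1.87.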
